A study of Mus musculus with 6 samples.

Results

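The genes described here are the 10 Notch receptors, ligands and targets Notch1, Notch2, Notch3, Jag1, Jag2, Dll4, Hes1, Hey1, Hey2 and Heyl, taken by gene symbol as a set of core genes of the pathway. The set was chosen with earlier results of these data known. Each gene was read by 1 of the 19571 rows of the array that carry a gene symbol. The arrays compared WT MC3T3-e1 cells, an osteoblastic line derived from mouse calvaria, with Tmem161a-KO cells, a line established from them by limiting dilution after CRISPR/Cas9 had introduced small deletions into Tmem161a. There were 3 arrays for WT cells and 3 for Tmem161a-KO cells, and the question was which transcripts differ between the lines. Since there was a single knockout line, an effect of Tmem161a and a property of that line cannot be told apart. Nothing in the labels states that samples were grown separately, so the p-values cover the spread among these samples alone, and that spread may be technical.

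Notch proteins are receptors that span the membrane and are activated by ligands of the Jagged and Delta-like families on a neighboring cell. Ligand binding exposes the receptor to ADAM proteases and then to γ-secretase, which frees an intracellular domain that enters the nucleus, joins the DNA-binding protein RBPJ and a Mastermind coactivator, and switches on genes of the HES and HEY repressor families. In bone, mouse genetics has linked Notch signaling to the maintenance of osteoblast progenitors and to restraint of their differentiation.

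Of the 10 genes, only Notch2 passed the test and was lower in Tmem161a-KO cells, at 0.717 of its WT level, and none was higher. With bulk RNA, fewer expressing cells and less RNA per cell cannot be told apart. The ligands Jag1, Jag2 and Dll4 and the targets Hes1, Hey1, Hey2 and Heyl did not pass. A gene was called at an adjusted p under 0.05 from limma fitted to the log2 intensities of all 19571 gene rows, adjusted over these rows by the Benjamini-Hochberg method. The 1 call among 10 genes stands against 9.91% of all rows called in either direction (5.73% higher and 4.17% lower). The median log2 fold change of the 10 genes was -0.02, against -0.01 over all rows. The count for higher members was 0 with limma, 0 at an unadjusted p under 0.05 from limma, and 0 with the methods' t-test, and for lower members the counts were 1, 2 and 1. The last of these tests was read without adjustment, here and below unless stated, and with Benjamini-Hochberg adjustment it called 0 of the 10 genes. Of all 19571 rows, the unadjusted limma p gave 2453 higher and 2325 lower, and the last test gave 2038 and 1878. No test was made of the member counts against these. The groups did not overlap in 2 of the 10 genes, Notch1 and Notch2, both with the Tmem161a-KO arrays below. They did not overlap in 28.9% of all rows (14.5% with Tmem161a-KO above and 14.4% with it below).

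The median intensity of an array was 214 to 215 in WT cells and 204 to 208 in Tmem161a-KO cells, and log2 intensities correlated across rows at 0.9961 to 0.9967 within a group and 0.9906 to 0.9927 between groups, although rows are not independent replicates. Over all rows 1122 were higher and 817 lower, and with each array centred on its median these counts were 1619 and 614. Olfactory receptor genes served as the measure of background, and the 95th percentile of their 1091 rows lay at an intensity of 100.1. The edited gene Tmem161a differed by -0.25 on the log2 scale (standard error 0.11, 95% interval -0.49 to -0.007, adjusted p of 0.192 from limma). Every Tmem161a-KO array lay below every WT array, as in 14.4% of all rows. This checks neither the deletions nor the labels, because the sources used here do not give the place of its probes. Of the osteoblast markers, 4 of 12 (Alpl, Ibsp, Dmp1 and Phex) lay below the background percentile in both groups. In Tmem161a-KO cells 3 were higher (Sp7 4.83-fold, Dlx5 2.21-fold and Msx2 2.59-fold) and none was lower. These calls make 25% of the 12 markers, against 9.91% of all rows. The summed intensity of the 12 was 431132 to 440680 in WT cells and 414145 to 436455 in Tmem161a-KO cells. Col1a1 and Col1a2 made up most of each sum, with means of 176502 and 193232 in WT and 158953 and 178924 in Tmem161a-KO cells. The sums therefore say little about the other markers. All 7 myeloid and all 6 adipocyte markers lay below background in both groups, with Lep called lower (log2 fold change -0.43, adjusted p = 0.0186), and of 7 chondrocyte markers 2 lay below background and Col2a1 was lower (-0.82, adjusted p = 0.000698).

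Notch2 was the 1 receptor whose difference passed the test. This receptor, in which truncating mutations cause a human skeletal disease with bone loss, had intensities of 3535, 3599 and 4349 in the WT samples and 3274, 2539.6 and 2449 in the knockout samples. Every Tmem161a-KO array lay below every WT array, although the highest Tmem161a-KO value was much nearer to the lowest WT value than to the other arrays of its own group. The WT mean was 3828 ± 453 (SD, n = 3), and that of the knockout 2754 ± 452 (SD, n = 3). In the fit this was -0.48 on the log2 scale, with a standard error of 0.14, a 95% interval of -0.77 to -0.19 and an adjusted p of 0.0352 from limma. The call was lost without WT replicate 1 (adjusted p = 0.0562), WT replicate 2 (0.0670), WT replicate 3 (0.132), Tmem161a-KO replicate 2 (0.102) or Tmem161a-KO replicate 3 (0.137), and it held without Tmem161a-KO replicate 1, where the log2 fold change was -0.61 (adjusted p = 0.0131). Centring the arrays on their medians also ended it (-0.42, adjusted p = 0.0595).

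Notch1, the receptor best known for its part in T-cell development, showed a smaller difference in the same direction. It had intensities of 504, 535 and 679 in WT cells and 448, 452 and 449.6 in Tmem161a-KO cells. The groups did not overlap, and the Tmem161a-KO arrays were almost equal while WT replicate 3 stood above the other WT arrays. The log2 fold change was -0.34 (standard error 0.13, 95% interval -0.60 to -0.07), and with an adjusted p of 0.112 it did not pass the test. Without WT replicate 3 the log2 fold change was -0.21 (adjusted p = 0.361). It passed only with the rows of each chromosome centred on their brighter members (-0.41, adjusted p = 0.0464).

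Notch3, a receptor of vascular smooth muscle cells and pericytes, had an estimate in the other direction that did not pass. It lay near the background percentile, with intensities of 156, 114 and 126 in WT cells and 161, 142 and 162 in Tmem161a-KO cells. WT replicate 1 lay above Tmem161a-KO replicate 2, so the groups overlapped. The log2 fold change was 0.25 (standard error 0.13, 95% interval -0.03 to 0.53, adjusted p = 0.269). Notch3 lies on chromosome 17, where 82 of 964 rows (8.51%) were lower and 12 were higher, and where the median log2 fold change of the brighter rows was -0.18. Relative to these rows, with each chromosome centred in this way, Notch3 had a log2 fold change of 0.43 and passed (adjusted p = 0.0452). Of 10 smooth muscle and pericyte markers, a list that holds Notch3 itself, 2 were higher (Mcam and Cspg4), none was lower, and Cnn1, Des and Rgs5 lay below the background percentile. The 2 calls make 20% of the list, against 9.91% of all rows. The summed intensity of the 10 markers was 264587 to 337220 in WT cells and 319946 to 353905 in Tmem161a-KO cells. Acta2, which was not called, made up most of each sum, with means of 232757 in WT and 251889 in Tmem161a-KO cells. The part of other cell types in the value of Notch3 was not tested.

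**Figure D1:**
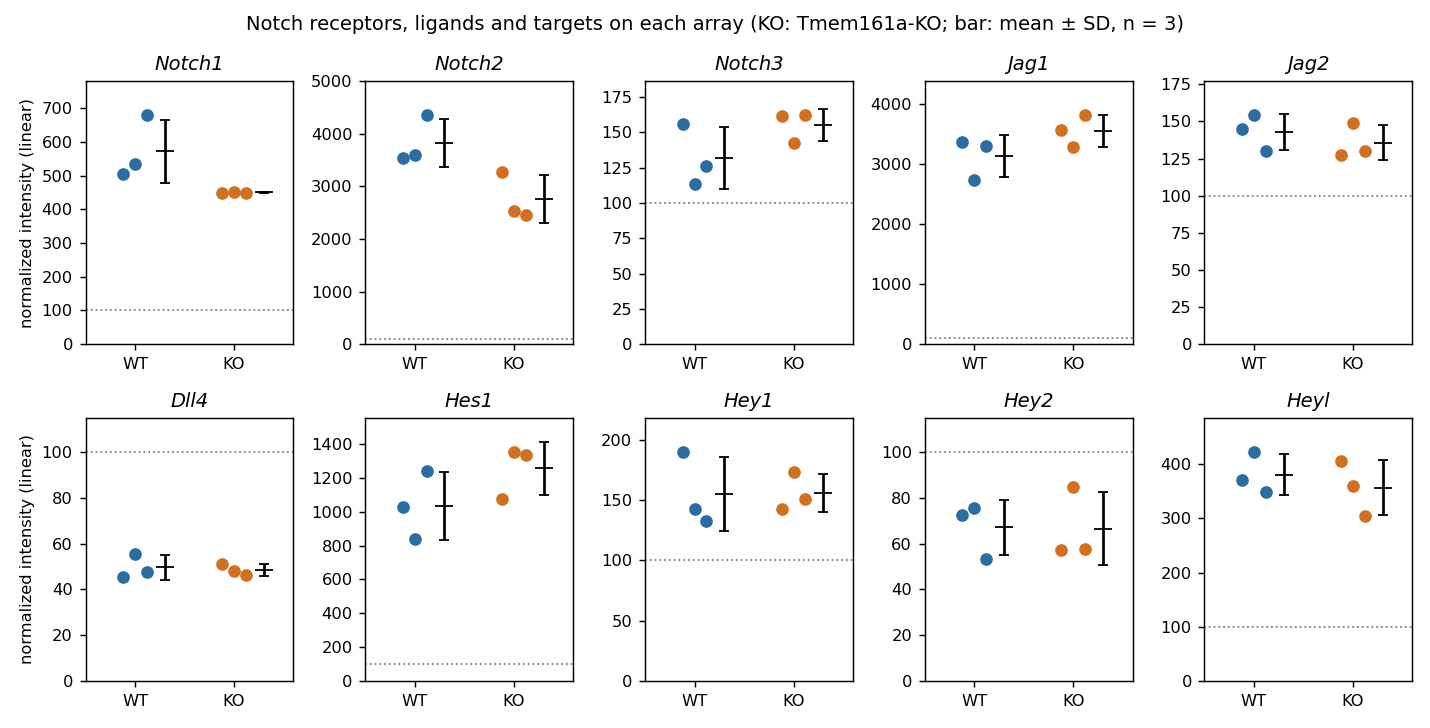
Normalized intensity (linear scale, vertical axes from 0 and different for each gene) of the 10 genes on the 3 WT arrays (blue) and 3 Tmem161a-KO arrays (orange), from replicate 1 on the left to replicate 3 on the right, with mean ± SD as black bars and the olfactory receptor 95th percentile of 100.1 as a dotted line. Only Notch1 and Notch2 show groups that do not overlap, and Dll4 and Hey2 lie below the dotted line on all arrays.

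The changes of the receptors relative to one another do not depend on a scaling factor that is common to an array. Within each array, the log2 ratio of Notch2 to Notch3 was lower in Tmem161a-KO cells by a difference of -0.73, and that of Notch1 to Notch3 by a difference of -0.58. For both ratios the groups did not overlap, and the exact permutation test gave p = 0.1 (two-sided, adjusted p = 0.15 over 3 pairs), which is the smallest p that 3 against 3 arrays can give. The ratio of Notch1 to Notch2 changed by 0.15 with overlapping groups (exact permutation p = 0.4, adjusted p = 0.4). These 3 ratios were added after the values had been seen. Both ratios over Notch3 rest on a gene near the background percentile. It lies on chromosome 17, where the brighter rows had a median log2 fold change of -0.18. The values given here are corrected for neither. With an array left out, the change ranged from -0.91 to -0.605 for Notch2 over Notch3 and from -0.79 to -0.43 for Notch1 over Notch3.

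**Figure D2:**
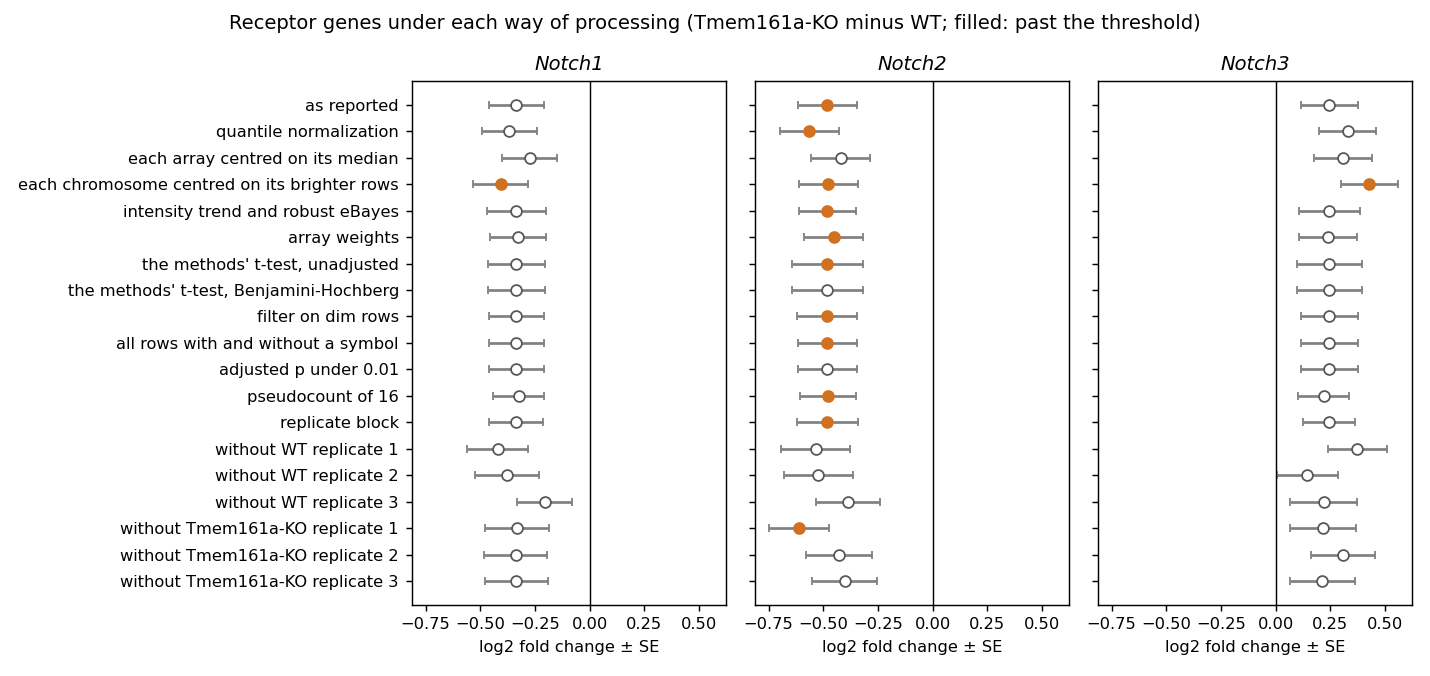
Log2 fold change (Tmem161a-KO minus WT, horizontal axis, with standard error) of the receptor genes as reported and under 18 other ways of processing the same arrays, with filled points past the threshold. Notch2 stays below 0 throughout, from -0.61 to -0.39, but 8 of the 18 alternatives leave it short of the threshold, whereas Notch1 and Notch3 each pass under 1.

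Notch4, an endothelial receptor that was not among the 10 genes and also lies on chromosome 17, had a log2 fold change of -0.16 (adjusted p = 0.435 from limma).

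None of the ligands passed the test. Jag1, a ligand found in many tissues including the osteoblast lineage, had intensities of 3366, 2736 and 3298 in WT cells and 3556, 3273 and 3804 in Tmem161a-KO cells. The groups overlapped, since Tmem161a-KO replicate 2 lay below WT replicates 1 and 3. On the log2 scale the difference was 0.18, with a standard error of 0.12, a 95% interval of -0.08 to 0.44 and an adjusted p of 0.393. Jag2, a second Jagged ligand, ranged from 129.9 to 154 in WT cells and from 128 to 149 in Tmem161a-KO cells, with a log2 fold change of -0.08 (95% interval -0.33 to 0.18). Its sign turned under quantile normalization. Dll4, the Delta-like ligand of sprouting vessels, ranged from 45.6 to 55.7 in WT cells and from 46.2 to 51.3 in Tmem161a-KO cells, all below the background percentile, so its log2 fold change of -0.03 (95% interval -0.28 to 0.22) says little about its RNA. Of 10 endothelial markers, Pecam1, Cdh5, Kdr, Tek, Emcn, Cldn5 and Erg were below that percentile in both groups. The summed intensity of the 10 was 6108 to 6718 in WT cells and 4661 to 5399 in Tmem161a-KO cells, and Flt1, a receptor for VEGF, was the 1 called marker (log2 fold change -0.41, adjusted p = 0.0355). Flt1 made up most of each sum, with 5034 ± 263 in WT and 3796 ± 356 in Tmem161a-KO cells (SD, n = 3 each). The Delta-like genes outside the 10 gave log2 fold changes of 0.06 for Dll1, which was below the background percentile, and -0.16 for Dll3. Over all 5 ligand genes limma called 0, and 0 had an unadjusted limma p or a p under 0.05 by the methods' t-test.

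The targets showed no change that passed the test. Hes1, a repressor that oscillates in many progenitor cells and a widely used target of Notch, had intensities of 1028, 838 and 1239 in WT cells and 1076, 1353 and 1338 in Tmem161a-KO cells. Tmem161a-KO replicates 2 and 3 lay above all WT arrays, and replicate 1 lay within the WT range. The log2 fold change was 0.29 (standard error 0.15, 95% interval -0.02 to 0.60, adjusted p = 0.244 from limma), so the estimate for Hes1 was above 0 while those for Notch1 and Notch2 were below 0. Hey1, a repressor related to Hes1, ranged from 133 to 189.7 in WT cells and from 143 to 173 in Tmem161a-KO cells. The estimate was 0.02 on the log2 scale (95% interval -0.28 to 0.32), with a sign that depended on which array was left out. Heyl, another member of the HEY family, ranged from 348 to 422 in WT cells and from 304 to 406 in Tmem161a-KO cells (log2 fold change -0.10, 95% interval -0.38 to 0.18). Hey2, known for its part in heart and artery development, ranged from 53.3 to 75.6 in WT cells and from 57.5 to 84.9 in Tmem161a-KO cells, below the background percentile on all arrays (log2 fold change -0.02, 95% interval -0.37 to 0.33). The differences between these targets and Notch2 were not tested.

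**Figure D3:**
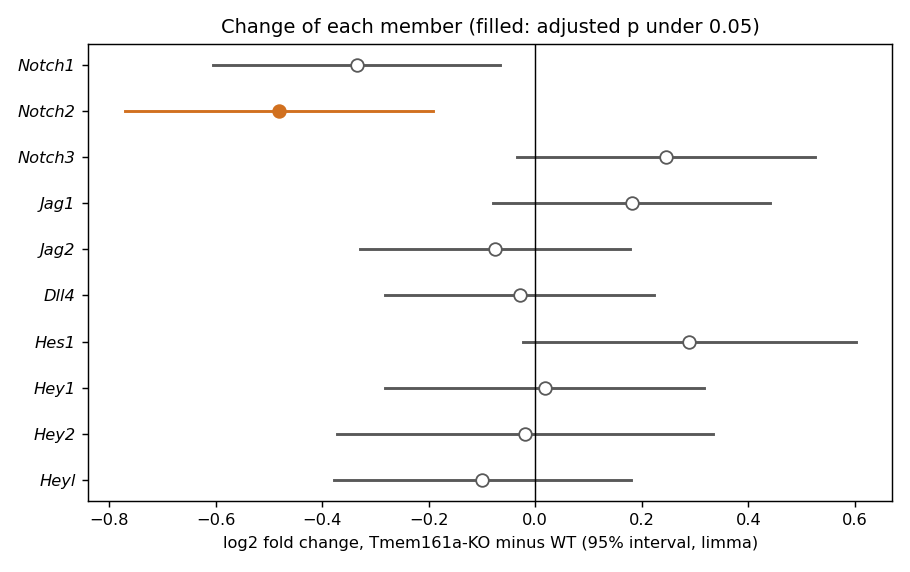
Log2 fold change (Tmem161a-KO minus WT, horizontal axis) of the 10 genes with the 95% interval from limma as a line. Only Notch2 (filled, -0.48) passed the test over all genes, and the interval of Notch1 also lies below 0 although its adjusted p of 0.112 did not pass.

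Of the other HES genes and their relatives, Hes5 and Bhlhe41 fell and Hes6 rose. Hes5, a Notch target of neural progenitors, averaged 1568 ± 97.1 in WT and 1118 ± 29.3 in Tmem161a-KO cells (SD, n = 3 each), which is -0.49 on the log2 scale (limma standard error 0.11, adjusted p = 0.0104), and without WT replicate 1 its adjusted p was 0.0550. Hes6, which is known to counteract Hes1, averaged 201 ± 20.9 and 281 ± 17.3 (SD, n = 3 each), or 0.49 on the log2 scale (adjusted p = 0.0160), which was lost without WT replicate 3 (adjusted p = 0.0722) or Tmem161a-KO replicate 3 (0.0650), and with each chromosome centred on its brighter rows (0.35, adjusted p = 0.0674). Bhlhe41, a clock-associated repressor that resembles the HES proteins, had a log2 fold change of -0.90 (adjusted p = 0.000119), and its call held with any array left out. Of 12 measured genes of this list, 1 was higher, 2 were lower and 9 did not pass (25% called, against 9.91% of all rows).

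The promoters were read for the motif of the Notch partner RBPJ. RefSeq promoter windows of GRCm38.p6 were at hand for 7 of the 10 members, namely Notch1, Notch2, Notch3, Jag1, Jag2, Dll4 and Hey2, and the 250 bases before the start of the transcript were searched on both strands for GTGGGAA, the core that RBPJ is known to bind (TTCCCAC on the other strand). Of the 7 members, 1 held it, and over all 32851 windows of that length 5.42% did. Of 114 windows of pathway genes, 7 held it. The windows below are those of a target that fell (Hes5), a modifier that rose (Lfng) and a member at background (Hey2), each written from 5′ to 3′ on the strand of the gene, with the motif in capitals.
Hes5, chr4:154960673-154960922, plus strand: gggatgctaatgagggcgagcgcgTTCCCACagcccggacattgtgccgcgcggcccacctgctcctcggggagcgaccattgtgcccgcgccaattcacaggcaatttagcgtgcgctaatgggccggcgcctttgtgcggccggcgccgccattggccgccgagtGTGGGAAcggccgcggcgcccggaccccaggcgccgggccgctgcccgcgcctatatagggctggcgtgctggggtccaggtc
Lfng, chr5:140607091-140607340, plus strand: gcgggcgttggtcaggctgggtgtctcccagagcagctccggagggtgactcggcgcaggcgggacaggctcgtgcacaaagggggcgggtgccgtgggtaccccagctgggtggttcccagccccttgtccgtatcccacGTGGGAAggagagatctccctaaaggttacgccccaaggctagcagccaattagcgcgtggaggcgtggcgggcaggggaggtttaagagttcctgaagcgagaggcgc
Hey2, chr10:30842784-30843033, minus strand: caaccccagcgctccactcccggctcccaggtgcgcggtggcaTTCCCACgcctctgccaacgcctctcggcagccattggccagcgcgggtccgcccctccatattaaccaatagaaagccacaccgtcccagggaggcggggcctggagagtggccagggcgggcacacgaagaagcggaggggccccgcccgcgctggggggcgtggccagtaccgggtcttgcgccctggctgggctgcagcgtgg
Hes5 held 2 matches, whose first bases lay 226 and 83 bases before the start, whereas 0.161% of all windows held 2 or more. The match lay 109 bases before the start of Lfng and 207 bases before that of Hey2. A match is a description of the letters and not a binding site. Of the 7 pathway genes with a match in the windows counted, 1 was lower (Hes5), 1 was higher (Lfng) and 5 were not called (Hey2, Hes7, Psen2, Rbpjl and Spen).

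Lfng rose in Tmem161a-KO cells and the other Fringe genes did not pass the test. Fringe enzymes add a sugar to O-fucose on the EGF repeats of Notch and shift the response of the receptor between Delta-like and Jagged ligands. Lfng averaged 1550.4 ± 233 in WT and 2271 ± 244 in Tmem161a-KO cells (SD, n = 3 each), which is 0.56 on the log2 scale (limma standard error 0.13, adjusted p = 0.0151), and every Tmem161a-KO array lay above every WT array. The call was lost without WT replicate 2 (adjusted p = 0.0820), Tmem161a-KO replicate 1 (0.0650) or Tmem161a-KO replicate 3 (0.0621). The log2 fold change was -0.21 for Mfng (adjusted p = 0.369) and -0.24 for Rfng (adjusted p = 0.207). Poglut2, which adds glucose to EGF repeats, rose from 3286 ± 117 to 5284 ± 317 (SD, n = 3 each), by 0.68 on the log2 scale (adjusted p = 0.000752), and passed under all 18 alternatives. Of 11 measured genes of receptor glycosylation these 2 were higher and none was lower (2 higher and 0 lower with an unadjusted limma p below 0.05, and 2 and 1 with the methods' t-test). The limma calls make 18.2% of this list, against 9.91% of all rows.

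Of the machinery that cuts the receptors, 1 of 9 measured genes passed (11.1%, against 9.91% of all rows). Aph1b, a subunit of γ-secretase, rose from 297 ± 13.2 to 435 ± 24.5 (SD, n = 3 each), by 0.55 on the log2 scale (limma standard error 0.11, adjusted p = 0.00449). Aph1c, a close copy of Aph1b in the mouse, had 0.23, and with near-identical copies the probes may read both. The proteases gave log2 fold changes of -0.15 for Adam10, 0.20 for Adam17 and 0.03 for Furin, and the γ-secretase genes Psen2, Ncstn, Aph1a and Psenen gave 0.24, 0.25, 0.07 and -0.18. The median over the 9 genes was 0.20, without a test of the list.

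In the nucleus, 0 of 10 genes of the activation complex passed with limma, 1 higher and 1 lower gene had an unadjusted limma p under 0.05, and the methods' t-test gave 0 and 1. Rbpj, the DNA-binding partner of the Notch intracellular domain, averaged 17352 ± 2234 in WT and 20532 ± 2683 in Tmem161a-KO cells (SD, n = 3 each), with overlapping groups (log2 fold change 0.24, adjusted p = 0.282). The Mastermind coactivators gave 0.21 for Maml1, -0.02 for Maml2 and 0.06 for Maml3. Among 16 corepressor genes, Kdm1a, a histone demethylase also called LSD1, rose (log2 fold change 0.55, adjusted p = 0.0131), as did Ctbp2 (0.44, adjusted p = 0.0355), and Bend6, which binds RBPJ and opposes Notch in neural cells, fell (-0.42, adjusted p = 0.0450). These 3 calls make 18.8% of the corepressor list, against 9.91% of all rows. Leaving out 1 array ended each of these calls, and so did other scalings for Ctbp2 and Bend6. Kdm1a lost it without WT replicate 1, Tmem161a-KO replicate 1 or Tmem161a-KO replicate 3 (adjusted p of 0.0566, 0.0546 and 0.0657). Ctbp2 lost it without WT replicate 1 or 2 or Tmem161a-KO replicate 1 or 2 (0.125, 0.130, 0.131 and 0.0877), and Bend6 without WT replicate 1 or 2 or any Tmem161a-KO array (0.0603 to 0.168). With quantile normalization the log2 fold change was 0.35 for Ctbp2 (adjusted p = 0.100) and -0.38 for Bend6 (0.0757). Centring each chromosome also ended the call of Ctbp2 (0.0507), and centring each array on its median (0.0759) or a variance trend with intensity (0.0529) that of Bend6.

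Among 22 genes of endocytosis and turnover, 2 rose and 2 fell (18.2% called, against 9.91% of all rows). Among those with a group above the background percentile 15% were called, against 14.3% of such rows, so the count is near that share. Fbxw7, the ubiquitin ligase subunit that marks the Notch intracellular domain for degradation, averaged 479 ± 114 in WT and 831 ± 98.0 in Tmem161a-KO cells (SD, n = 3 each), which is 0.82 on the log2 scale (limma standard error 0.16, adjusted p = 0.00405), and every Tmem161a-KO array lay above every WT array. Its call held with any array left out, and the largest adjusted p among these fits was 0.0299. Neurl1a, a ligase that acts on Notch ligands, rose (0.55, adjusted p = 0.0154), which was lost without WT replicate 3 (0.0660) or Tmem161a-KO replicate 2 (0.0648), or with each chromosome centred (0.0512). Dtx3l, of the Deltex family, fell (-0.45, adjusted p = 0.0372), which was lost without WT replicate 1 or 2 or Tmem161a-KO replicate 2 or 3 (0.0506, 0.164, 0.111 and 0.0968), or with each array centred on its median (0.0646). Neurl1b, on chromosome 17, fell (-0.45, adjusted p = 0.0216) but lay below the background percentile in both groups, and with each chromosome centred its log2 fold change was -0.26 (adjusted p = 0.155), and with quantile normalization the adjusted p was 0.0565. Leaving out WT replicate 2 or Tmem161a-KO replicate 1 or 3 also ended its call (adjusted p of 0.0922, 0.0585 and 0.0834).

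The strongest changes in the pathway lists lay outside the core. The lists, noncanonical ligands included, were chosen with earlier results of these data known. Large changes within them can therefore not be read as a result about the pathway. Ccn3, a matricellular protein reported to bind Notch1, averaged 47306 ± 11778 in WT and 6240.4 ± 2549 in Tmem161a-KO cells (SD, n = 3 each), which is -2.99 on the log2 scale (adjusted p = 2.3e-06), and Mfap5, a microfibril protein reported to bind Jagged and Notch, had a log2 fold change of 1.07 (adjusted p = 0.00157 from limma). Of the 8 measured noncanonical ligands, 5 lay below the background percentile in both groups. Among 12 other reported Notch target genes, 3 rose and none fell (4 and 0 with an unadjusted limma p below 0.05, and 3 and 0 with the methods' t-test). Over all rows 5.73% were called higher and 4.17% lower, and this list was chosen with earlier results known. Efnb2, which encodes the ligand ephrin-B2, averaged 532 ± 200.2 and 1476 ± 242 (SD, n = 3 each), or 1.53 on the log2 scale (adjusted p = 0.000139), and the transcription factor gene Snai2 had 1.43 (adjusted p = 4.15e-06). Cdkn1a, a cell cycle inhibitor gene on chromosome 17, had 0.47 (adjusted p = 0.0306), which was lost without WT replicate 1 or 2 or Tmem161a-KO replicate 1 or 3 (0.0670, 0.144, 0.0903 and 0.0940), or with quantile normalization (0.0689). Many other pathways also act on these genes.

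Over the 10 lists together, 107 of 112 pathway genes were measured, of which 12 were higher, 7 were lower and 88 did not pass. The 19 calls make 17.8%, against 9.91% of all rows. Among genes with a group above the background percentile the shares were 18.9% of 95 pathway genes and 14.3% of 12914 rows, and no test was made of that difference. The lists were chosen with earlier results of these data known. Neither these shares nor the counts of single lists can therefore be read as a result about the pathway. The median log2 fold change of the 107 genes was 0.03. With the methods' t-test and Benjamini-Hochberg adjustment, Poglut2 was the 1 pathway gene still called.

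**Figure D4:**
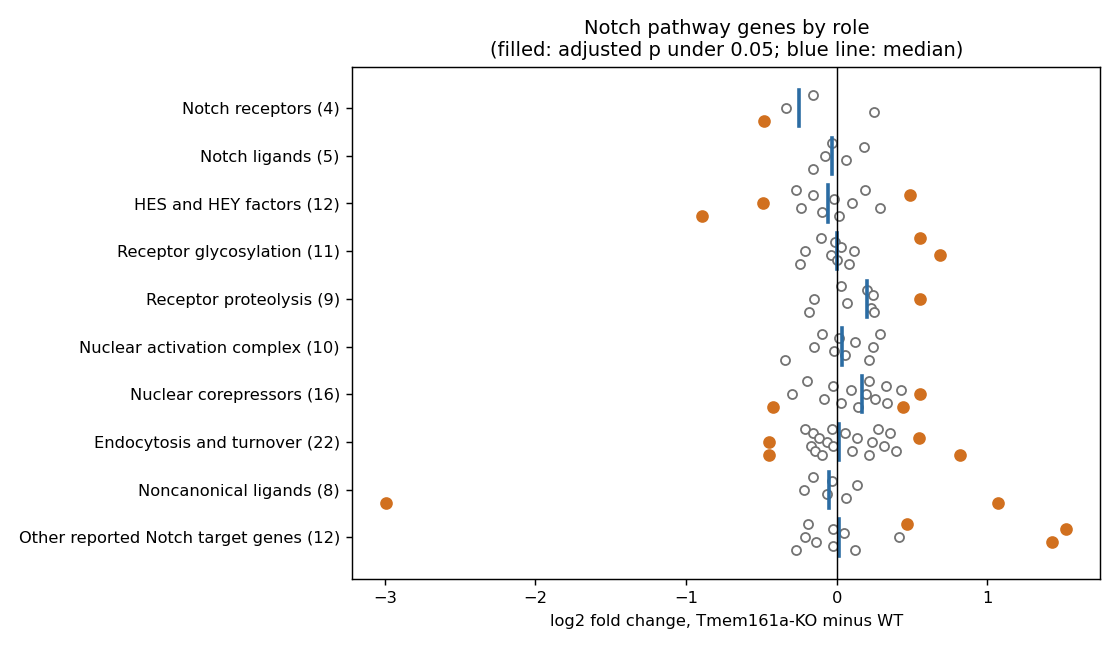
Log2 fold change (Tmem161a-KO minus WT, horizontal axis) of the measured pathway genes in 10 lists by role, with the number of genes in brackets, filled points for calls and a blue line for the median of each list. Calls lie on both sides of 0, from -2.99 for Ccn3 up to 1.53 for Efnb2, and the ligand and activation complex lists hold none.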

How the data were processed

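RNA from 3 samples of WT and 3 of Tmem161a-KO MC3T3-e1 cells had been hybridized to Clariom S mouse arrays, 1 array per sample. The authors deposited linear intensities that they had normalized with GeneSpring. Background correction and probe summarization are not stated in the labels or methods. The intensities were transformed to log2 without a pseudocount, and groups were compared by lmFit and eBayes of limma 3.58.1 (R 4.3.3) with Benjamini-Hochberg adjustment. Of 22205 rows, 19571 carried a single symbol in the platform annotation and 2634 carried none and were left out. For a symbol on several rows (55 symbols) the brightest row was used. Chromosomes and promoters came from RefSeq tables of GRCm38.p6, whereas the build used for the array annotation is not stated there.

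The members and lists were chosen with earlier results of these data known. The text names all members, every called gene of the 10 pathway lists (up to 6 per list), the remaining receptor and ligand genes, Rbpj, and the Mastermind and Fringe genes. The other proteolysis genes, Flt1 and called markers were named after their values were seen. Some listed genes were not analysed here. Array data carry no read depth, so the number of arrays limits the precision. The alternatives were other scalings, variance models, filters, thresholds and tests, a replicate block and leaving out each array.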

Additional observations from a re-analysis of the deposited data

How the results depend on the processing

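Over 18 alternatives, 6 of which left out an array, Notch2 stayed below 0 throughout, and 0 of the 10 members were higher except for 1 (Notch3) with each chromosome centred on its brighter rows, a setting that also lowered the median over all rows by a shift of -0.05. The count of lower members was 1, against 2 with each chromosome centred, 0 with each array centred on its median, 0 with the methods' t-test after Benjamini-Hochberg adjustment, 0 at an adjusted p under 0.01 and 0 to 1 with an array left out. The pathway lists gave 12 higher and 7 lower genes, against 1 and 0 with the methods' t-test after adjustment, 6 and 2 at the stricter threshold, 9 to 11 and 3 to 6 with an array left out, and 18 and 4 with each array centred. All rows gave 1122 higher and 817 lower, against 703 and 1631 with each chromosome centred, 2038 and 1878 with the methods' t-test unadjusted, 114 and 76 with the adjusted one, 581 and 382 at the stricter threshold, and 729 to 965 and 497 to 703 with an array left out. The cause of these differences was not tested, beyond the stricter thresholds and the fewer arrays. The signs of Jag2, Dll4, Hey1, Hey2 and Heyl turned under some alternatives, always short of the threshold. Whether the replicate numbers pair the samples was not settled. Deviations of same-numbered arrays correlated at 0.0719, 0.0945 and 0.0205, and those of differently numbered arrays at -0.11 to 0.0398. WT replicate 3 correlated best with Tmem161a-KO replicate 1 (0.0398), and every other array with its own number. With the replicate block 1198 rows were higher and 853 lower, and among the members 0 and 1. Dim rows limit what can be read from Dll4 and Hey2.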

Other observations

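The rows nearest to Notch2 over the 6 arrays, by Euclidean distance between centred log2 intensities, were Slc6a18 (distance 0.123, log2 fold change -0.47), Nkx1-1 (0.177, -0.44) and Klhl4 (0.182, -0.37), of which Klhl4 lay below the background percentile in both groups. These distances describe the arrays and were not tested.

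The replicate spread of Notch1 differed between the groups, with an SD of 93.3 for WT and 2.06 for the knockout (n = 3 each), whereas that of Notch2 was 453 and 452.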
